A study of Mus musculus with 4 samples.

Results

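The genes described here make cholesterol, sense it, take it up and export it. They were 29 genes of a named list, found by gene symbol among the 56953 genes counted in mouse skin: 8 enzymes of the mevalonate pathway, 11 enzymes of the sterol pathway, 5 regulators of the SREBP transcription factors, the sterol carrier gene Stard4 with the ubiquitin ligase gene Mylip, and 3 genes of the LXR efflux pathway. All 29 passed the filter on low counts and were among the 11388 genes tested. Dorsal skin of wild type C57BL/6J mice received either NEDD8i at 10 µM or the solvent DMSO on its surface for 3 days, and each group had 2 libraries. NEDD8i is known here only by its label, which refers to the ubiquitin-like protein NEDD8. Neither the age nor the sex of the mice was among the labels used here, nor whether the libraries of a group came from separate mice, so p-values refer to the spread among the 4 libraries, part of which may be technical. In RNA from whole tissue, fewer cells of a type and less RNA per cell cannot be told apart.

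Cholesterol is built from acetyl-CoA through mevalonate and the isoprenoid farnesyl diphosphate to squalene, lanosterol and then cholesterol. The genes of this route are switched on together by the membrane-bound SREBP factors, which SCAP carries to the Golgi for cleavage when sterols are low and which INSIG proteins hold in the endoplasmic reticulum when sterols are high. LXR receptors respond to oxysterols, switch on the exporters ABCA1 and ABCG1, and induce MYLIP, a ubiquitin ligase that marks lipoprotein receptors for degradation. In skin, keratinocytes and sebaceous glands make much of their own cholesterol, a main lipid of the permeability barrier. NEDD8 activates cullin-RING ubiquitin ligases, and the cullin-RING ligase with FBXW7 degrades nuclear SREBPs. MYLIP is a RING ligase of another kind, without a cullin.

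Most of these genes were lower in NEDD8i skin than in DMSO skin, by amounts that did not pass the test across all genes. The lowest relative to DMSO were Stard4 and Mylip, at about 0.333 and 0.344 of the DMSO level, followed, among genes whose groups did not overlap, by the squalene synthase gene Fdft1, the HMG-CoA synthase gene Hmgcs1, the factor gene Srebf1, and the enzyme genes Mvk and Cyp51. Of the 29 genes 21 (72.4%) had a negative log2 fold change (NEDD8i over DMSO), against 50.1% of all tested genes, and their median was -0.49, against -0.0031 over all tested genes. By edgeR's quasi-likelihood test, with p-values adjusted by Benjamini-Hochberg over all tested genes, 0 members passed the threshold of 0.05, which 0.782% of all tested genes did. At an unadjusted p under 0.05, 8 members (27.6%) were lower, against 7.86% of all tested genes, and 1 (3.45%), Insig2, was higher, against 8.62%. Both NEDD8i libraries lay below both DMSO libraries for 15 members (51.7%), against 22.9% of all tested genes, and above them for 2 members (6.90%), Insig2 and Tm7sf2, against 25.0%. With DESeq2, 3 members passed, Stard4 (adjusted p = 0.0122), Hmgcs1 (0.0138) and Mylip (0.0254), all lower, and the same 3 passed in edgeR when no filter on low counts was applied. All genes passed at shares of 3.58% with DESeq2 and 2.97% with no filter, against 10.7% and 10.3% of the members. Without DMSO replicate 1, 5 members (17.2%) passed, against 10.4% of all tested genes: Mvk, Mvd, Stard4 and Mylip as lower and Insig2 as higher. Without DMSO replicate 2, 8 (27.6%) passed, against 10.7% of all tested genes: Hmgcs1, Fdft1, Cyp51, Srebf1, Insig1, Stard4 and Mylip as lower and Scap as higher. Leaving out NEDD8i replicate 1 or 2 gave 0, against 0.368% and 0.387% of all tested genes, and in all such fits the lone library is assumed to vary like the other group.

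**Figure D1:**
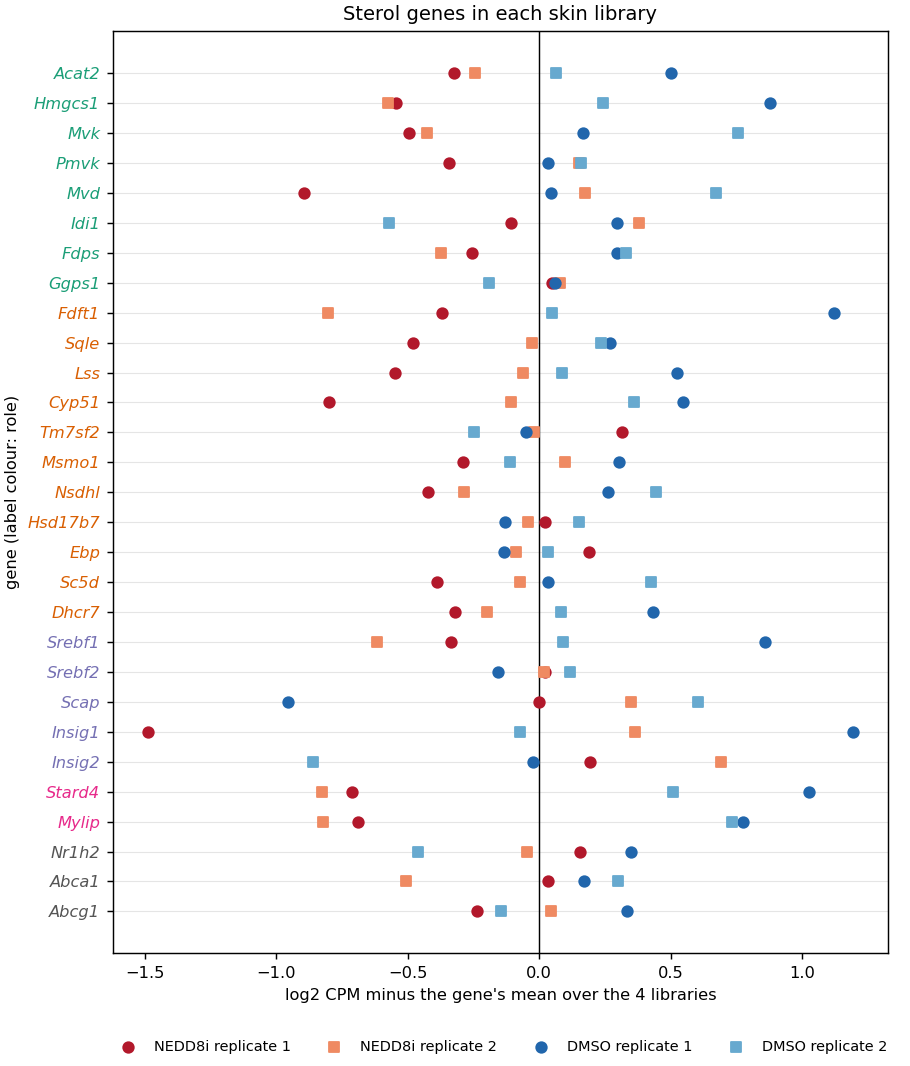
Level of each of the 29 genes in each library, as log2 CPM (prior count 2, library sizes scaled by TMM) minus the gene's mean over the 4 libraries; label colours mark mevalonate enzymes (green), sterol enzymes (orange), SREBP regulators (violet), Stard4 and Mylip (pink) and LXR and efflux genes (grey). Red and orange NEDD8i points lie left of the blue DMSO points for most synthesis genes, and Insig2 is the clearest exception.

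The 4 libraries differed in ways that touch these values. Total counts were 8856572 and 8833217 in NEDD8i replicates 1 and 2, against 5955627 and 5639791 in DMSO replicates 1 and 2, and 52.6% to 61.7% of them fell on 3 ribosomal RNA genes. Hair shaft and inner root sheath markers, of which 11 of 12 had a row, summed to 19.5 and 439.8 CPM (a gene's reads relative to the library total, scaled by TMM) in NEDD8i skin and to 6479 and 19.6 CPM in DMSO skin, so DMSO replicate 1 stood apart. That library held the highest value of 14 of the 29 members, against 25.5% of all tested genes. DMSO replicate 2 held that of 10 more, against 27.8% of all tested genes. Keratinocyte markers, all 8 of them expressed, summed to 10608 and 9663 CPM in NEDD8i skin and to 8159 and 14500 CPM in DMSO skin, groups that overlap. Sebocyte markers summed to 227.8 and 331.5 CPM in NEDD8i skin and to 279.7 and 227.1 CPM in DMSO skin, which also overlap; of the 13, Mogat1 had no read. Of the 10 tested, 5 (Awat1, Elovl3, Mc5r, Plin2 and Far2) lay wholly above DMSO, against 25.0% of all tested genes. Dgat2 alone lay wholly below, against 22.9%. In edgeR 0 passed the threshold, with Awat1 at a log2 fold change of 1.84 (adjusted p = 0.0866). At an unadjusted p under 0.05, 2 were higher and 1 lower, against 8.62% and 7.86% of all tested genes. Endothelial markers summed to 0.745 and 1.44 CPM in NEDD8i skin and to 0.429 and 0.543 CPM in DMSO skin over 5 genes, with Cdh5 at 0 reads in all, so the defining markers of endothelium, present in full-thickness skin, were at or near 0. Fibroblast markers, 7 genes, summed to 36.5 and 72.9 CPM in NEDD8i skin and to 55.7 and 7.06 CPM in DMSO skin. Of the 55.7 CPM in DMSO replicate 1, Dcn alone gave 49.3. Of the 5 tested, 4 (Col1a1, Col1a2, Col3a1 and Dpt) lay wholly above DMSO, against 25.0% of all tested genes, and Dcn overlapped. The same 4 were higher at an unadjusted p under 0.05, against 8.62%. In edgeR 1, Dpt, passed as higher (adjusted p = 0.0446), against 0.782% of all tested genes in either direction. Adipocyte markers, 8 genes, summed to 10.9 and 4.93 CPM in NEDD8i skin and to 73.3 and 2.90 CPM in DMSO skin. Of the 73.3 CPM in DMSO replicate 1, Fabp4 alone gave 70.5, while Adipoq had 0 reads and Plin1 had 1 in that library. The part of these cell types in the results below was not tested, and values without DMSO replicate 1 are given for the genes that differed most.

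Along the mevalonate pathway, 6 of 8 enzyme genes had a negative log2 fold change, against 50.1% of all tested genes. Of the 8, 4 had NEDD8i libraries wholly below DMSO libraries, against 22.9%, and 3 were lower at an unadjusted p under 0.05, against 7.86%. Their summed level was 254.4 ± 13.6 CPM in NEDD8i skin and 448.2 ± 59.2 CPM in DMSO skin (SD, n = 2 each), a ratio of 0.568. Hmgcs1, the cytosolic HMG-CoA synthase (ENSMUSG00000093930.3, chromosome 13, 120151982 to 120169796, plus strand, taken to be GRCm39), carried the largest part of that difference. It had 876 and 887 reads, or 108.8 and 106.6 CPM, in NEDD8i skin, against 2042 and 1039 reads, or 291.8 and 188.2 CPM, in DMSO skin. The NEDD8i libraries were nearly equal and lay below both DMSO libraries, while the DMSO libraries were far apart. Its log2 fold change was -1.16 (SE 0.33, adjusted p = 0.134), and -0.82 without DMSO replicate 1. Without Hmgcs1 the other 18 synthesis enzymes of both pathways still summed to 466.8 ± 46.5 CPM in NEDD8i skin and 620.6 ± 6.50 CPM in DMSO skin (SD, n = 2 each), a ratio of 0.752.

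Promoters were read for 24 of the 29 members, in 32 windows of 300 bases that run from 250 bases before to 50 bases from the gene's start, taken from RefSeq on GRCm38.p6. Hmgcs1 was the 1 member with an exact match to the sterol regulatory element TCACNCCAC on either strand, 137 bases before its start. Such a match was found in 3.12% of member windows and 1.24% of the 32851 windows of all genes. Sites that differ from these letters were not searched, so other members may hold sterol regulatory elements too. The NF-Y box CCAAT, whose factor assists SREBPs, was found on either strand in 65.6% of member windows and 37.4% of all windows. The GC box GGGCGG was found in 78.1% and 35.7%. The windows of all genes were not limited to genes that passed the filter on low counts, as all members did. The exact letters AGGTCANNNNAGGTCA of the LXR direct repeat were found in no member window and 0.0152% of all windows. So rare a string cannot show whether these promoters hold LXR sites, because sites that deviate from it were not searched. No window was read for Stard4, Fdft1, Fdps, Sqle and Abcg1. The promoters of Hmgcs1 (chr13:119690101-119690400, plus strand), Cyp51 (chr5:4104648-4104947, minus strand) and Mylip (chr13:45389492-45389791, plus strand) are shown as examples of genes that were lower in NEDD8i skin. Srebf1, Insig1 and Mvk also had windows and had lower log2 fold changes than Cyp51. Each reads 5′ to 3′ on the gene's strand. Capitals mark exact matches to TCACNCCAC and to the NF-Y box, which reads ATTGG where it lies on the other strand.
Hmgcs1: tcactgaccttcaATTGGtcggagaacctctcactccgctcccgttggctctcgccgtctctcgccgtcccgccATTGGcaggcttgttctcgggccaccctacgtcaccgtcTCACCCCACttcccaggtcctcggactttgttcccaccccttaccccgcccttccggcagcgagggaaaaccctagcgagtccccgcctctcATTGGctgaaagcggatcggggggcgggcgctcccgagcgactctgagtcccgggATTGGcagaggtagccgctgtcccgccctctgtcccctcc
Cyp51: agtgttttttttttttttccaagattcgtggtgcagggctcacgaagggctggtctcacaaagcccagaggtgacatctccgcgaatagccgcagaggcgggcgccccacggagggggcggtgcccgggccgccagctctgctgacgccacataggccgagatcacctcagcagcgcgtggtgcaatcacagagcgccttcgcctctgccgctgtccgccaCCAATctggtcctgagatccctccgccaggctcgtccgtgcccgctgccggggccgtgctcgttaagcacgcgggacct
Mylip: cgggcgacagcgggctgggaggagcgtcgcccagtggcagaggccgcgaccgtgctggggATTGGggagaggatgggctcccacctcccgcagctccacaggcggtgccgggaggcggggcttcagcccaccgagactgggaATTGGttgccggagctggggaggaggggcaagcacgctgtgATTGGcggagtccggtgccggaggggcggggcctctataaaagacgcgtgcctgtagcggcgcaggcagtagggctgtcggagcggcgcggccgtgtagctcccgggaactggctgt
The Hmgcs1 window holds 4 NF-Y boxes around its 1 match to TCACNCCAC, the Mylip window 3 NF-Y boxes and the Cyp51 window 1. Such boxes were not limited to lower genes: Ggps1 and Insig2, with positive log2 fold changes, each had a window with 3 of them. No link between the number of boxes and the level of a gene was tested. A match is a description of the letters, and no factor binding was measured.

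Mvk, the mevalonate kinase, had 14.5 and 15.3 CPM in NEDD8i skin, against 23.2 and 35.0 CPM in DMSO skin. The groups did not overlap, and here DMSO replicate 2 was the higher of its group. Its log2 fold change was -0.96 (SE 0.33, adjusted p = 0.196), -1.24 without DMSO replicate 1, where it passed (adjusted p = 0.00992), and -0.62 without DMSO replicate 2 (adjusted p = 0.351). Fdps, which makes farnesyl diphosphate, had 54.9 and 50.6 CPM in NEDD8i skin and 80.6 and 82.6 CPM in DMSO skin. Both groups were tight and separate, at a log2 fold change of -0.63 (SE 0.27, adjusted p = 0.292) and -0.66 without DMSO replicate 1. Acat2, the cytosolic acetoacetyl-CoA thiolase, had 10.4 and 11.1 CPM in NEDD8i skin and 18.7 and 13.8 CPM in DMSO skin, with a log2 fold change of -0.60 (SE 0.35, adjusted p = 0.442), and -0.37 without DMSO replicate 1. Mvd, the mevalonate diphosphate decarboxylase, overlapped between groups, with 14.5 and 30.8 CPM in NEDD8i skin and 28.2 and 43.6 CPM in DMSO skin. The log2 fold change of Mvd, -0.66 (SE 0.41, adjusted p = 0.474), ran from -1.32 without NEDD8i replicate 2 to -0.21 without NEDD8i replicate 1. The other 3 genes of the route stood near 0 on the log2 scale: Pmvk, the phosphomevalonate kinase, at -0.17 (SE 0.33), the isopentenyl isomerase gene Idi1 at 0.23 (SE 0.54), and Ggps1, which leads isoprenoids away from sterols to geranylgeranyl diphosphate, at 0.12 (SE 0.30). Idi1 had only 29 and 43 reads in NEDD8i skin and 34 and 14 in DMSO skin, and with library sizes left unscaled Idi1 and Ggps1 turned to -0.014 and -0.11.

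From squalene to cholesterol, 9 of 11 enzyme genes had a negative log2 fold change, against 50.1% of all tested genes. Of the 11, 7 lay wholly below DMSO, against 22.9%, and 2 were lower at an unadjusted p under 0.05, against 7.86%. Their summed level was 320 ± 31.3 CPM in NEDD8i skin and 412.4 ± 7.64 CPM in DMSO skin (SD, n = 2 each), a ratio of 0.776. Fdft1, the squalene synthase that commits farnesyl diphosphate to sterols, had 53 and 40 reads, or 6.58 and 4.81 CPM, in NEDD8i skin, against 133 and 49 reads, or 19.0 and 8.87 CPM, in DMSO skin. The groups did not overlap, but DMSO replicate 2 lay nearer to the NEDD8i libraries than to DMSO replicate 1, which stood well above the other 3 libraries. The log2 fold change was -1.30 (SE 0.46, adjusted p = 0.21), and -0.65 without DMSO replicate 1. Cyp51, the lanosterol demethylase, had 33.4 and 54.2 CPM in NEDD8i skin and 85.3 and 75.0 CPM in DMSO skin. Here the NEDD8i libraries were the ones that differed, with replicate 1 the lower, at a log2 fold change of -0.87 (SE 0.32, adjusted p = 0.221), -0.78 without DMSO replicate 1 and -0.55 without NEDD8i replicate 1. Exons of Fdft1, Cyp51 and Srebf1 overlap those of Ctsb, Akap9 and Rai1 on the opposite strand, and no source says whether the counting used strand, so reads of each pair may be mixed and their values are uncertain. The log2 fold changes of these partners were 0.34 for Ctsb, -0.73 for Akap9 and -0.20 for Rai1, with none past the threshold.

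The remaining sterol enzymes formed a graded set. Sqle, the squalene epoxidase and a rate-limiting step, had 40.7 and 56.0 CPM in NEDD8i skin and 68.7 and 67.2 CPM in DMSO skin (log2 fold change -0.49, SE 0.29, adjusted p = 0.451). Lss, which closes the sterol rings, stood at -0.66 (SE 0.53), Nsdhl, a sterol decarboxylase of the demethylation steps, at -0.74 (SE 0.41), Sc5d, the sterol desaturase, at -0.47 (SE 0.29), and Dhcr7, which makes cholesterol from 7-dehydrocholesterol, at -0.55 (SE 0.42). All 5 of these had both NEDD8i libraries below both DMSO libraries, and their adjusted p-values were 0.426 to 0.603; without DMSO replicate 1 their log2 fold changes were -0.84 to -0.37. By contrast Msmo1, the methylsterol oxidase, overlapped between groups with 47.2 and 61.9 CPM in NEDD8i skin and 71.5 and 53.4 CPM in DMSO skin (log2 fold change -0.20, SE 0.30). Hsd17b7, the sterol ketoreductase, stood at -0.03 (SE 0.31), and Ebp, the sterol isomerase, at 0.10 (SE 0.28), with 91.8 and 75.7 CPM in NEDD8i skin and 73.5 and 82.4 CPM in DMSO skin. Tm7sf2, a sterol reductase, had 14 and 11 reads in NEDD8i skin and 9 and 6 in DMSO skin. At that depth its log2 fold change of 0.36 had an SE of 0.74. Among the enzymes of both pathways, Hsd17b7, Ebp, Msmo1, Mvd, Pmvk, Idi1 and Ggps1 each overlapped between the groups. Overlap did not follow the size of the difference: Mvd, at a log2 fold change of -0.66, overlapped, while Fdps, at -0.63, did not. Differences between the enzymes were not tested. Of the 19 enzymes, 11 lay wholly lower in NEDD8i skin, against 22.9% of all tested genes.

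**Figure D2:**
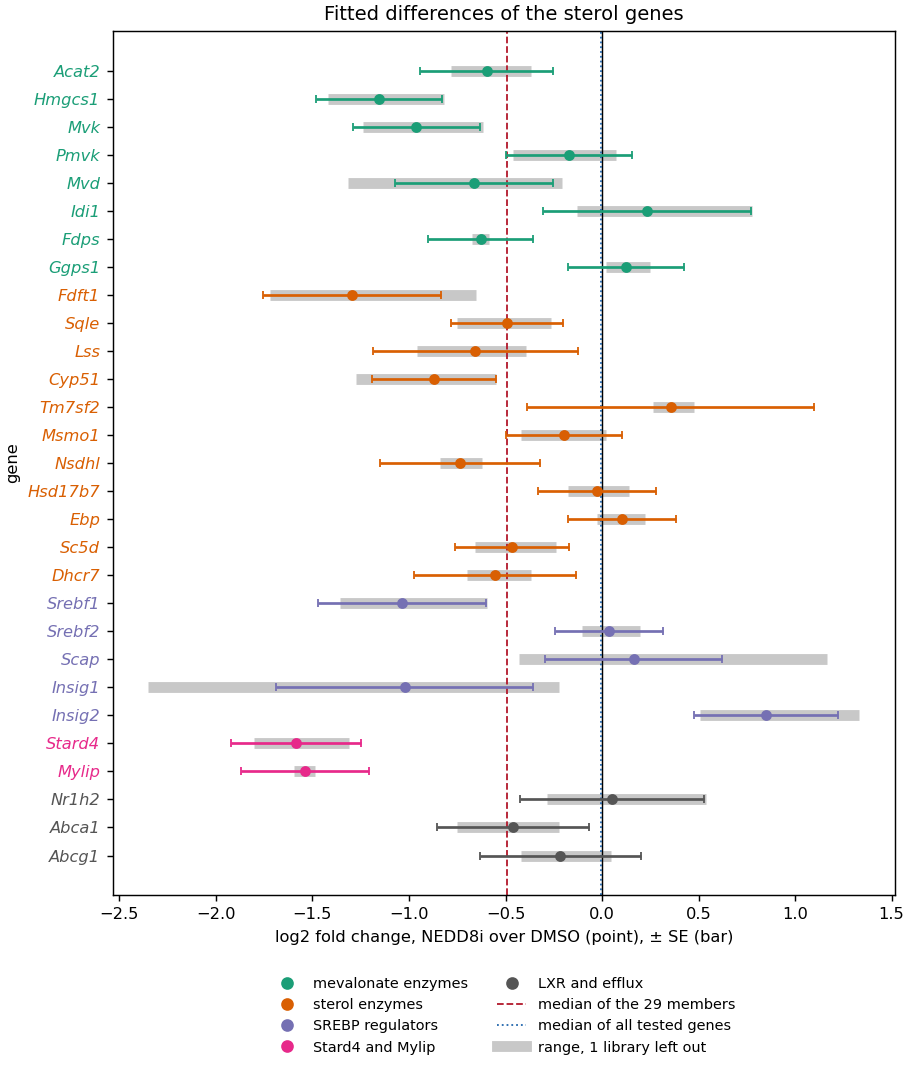
Log2 fold change of each gene, NEDD8i over DMSO (point), with its SE (bar) from the edgeR fit over all genes; thick grey bars span the values with 1 library left out, and the lines mark the median of the 29 genes (-0.49) and of all tested genes (-0.0031). Stard4 and Mylip lie farthest left, Mylip with a short grey bar, while Insig1 and Scap have the longest ones; point colours mark the roles.

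The SREBP regulators did not share a direction: 3 of 5 log2 fold changes were positive, with a median of 0.04, and none passed the test. Srebf1, which encodes SREBP-1, the factor that favours fatty acid genes, had 44 and 37 reads, or 5.46 and 4.45 CPM, in NEDD8i skin, against 90 and 41 reads, or 12.9 and 7.43 CPM, in DMSO skin. The groups did not overlap, but DMSO replicate 1 held the highest value by far. Its log2 fold change was -1.04 (SE 0.44, adjusted p = 0.282), and -0.59 without DMSO replicate 1. Srebf2, which encodes SREBP-2, the main factor for cholesterol genes, was level, with 78.5 and 78.2 CPM in NEDD8i skin and 69.2 and 83.7 CPM in DMSO skin (log2 fold change 0.04, SE 0.28). The transcript of Scap, the escort protein, varied most within DMSO skin, at 33.0 and 97.8 CPM, against 64.3 and 82.1 CPM in NEDD8i skin. Its log2 fold change of 0.16 (SE 0.46) therefore turned to -0.43 without DMSO replicate 1 and became 1.17 without DMSO replicate 2.

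The pair of INSIG genes pointed in opposite directions. Insig1, itself a classic SREBP target, had 15 and 62 reads, or 1.86 and 7.45 CPM, in NEDD8i skin, against 94 and 30 reads, or 13.4 and 5.43 CPM, in DMSO skin. The 2 libraries of each group were far apart and the groups overlapped. Its log2 fold change of -1.02 (SE 0.67, adjusted p = 0.5) ran from -2.35 without NEDD8i replicate 2 to -0.23 without DMSO replicate 1. Insig2, which in liver is under other control than Insig1, had 202 and 296 reads, or 25.1 and 35.6 CPM, in NEDD8i skin, against 151 and 66 reads, or 21.6 and 11.95 CPM, in DMSO skin. Both NEDD8i libraries were above both DMSO libraries, with DMSO replicate 1 close to NEDD8i replicate 1. The log2 fold change of Insig2 was 0.85 (SE 0.37, adjusted p = 0.303), and it was 1.33 without DMSO replicate 1, where it passed (adjusted p = 0.0126). It was 0.51 without DMSO replicate 2 (adjusted p = 0.447) and 0.56 without NEDD8i replicate 2 (adjusted p = 0.89). The difference between both genes' responses was not tested.

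Stard4 and Mylip had the smallest p-values of the 29 genes. Stard4 (ENSMUSG00000024378.10), a soluble carrier that moves cholesterol between membranes and a known SREBP-2 target, had 82 and 78 reads, or 10.2 and 9.37 CPM, in NEDD8i skin, against 242 and 133 reads, or 34.6 and 24.1 CPM, in DMSO skin. The groups lay far apart, and the lower DMSO library exceeded the higher NEDD8i library. Its log2 fold change was -1.59 (SE 0.34, adjusted p = 0.0703), and -1.31 without DMSO replicate 1. Mylip (ENSMUSG00000038175.11, chromosome 13, 45543218 to 45565498, plus strand) had 65 and 61 reads, or 8.07 and 7.33 CPM, in NEDD8i skin, against 159 and 122 reads, or 22.7 and 22.1 CPM, in DMSO skin. Both groups were tight, and leaving out 1 library gave log2 fold changes of -1.59 to -1.49 around -1.54 (SE 0.33, adjusted p = 0.0719). With the replicate number as a block both genes passed, at adjusted p = 0.0356 for Stard4 and 0.0403 for Mylip, as did 2.50% of all tested genes. Without NEDD8i replicate 1 or 2, their adjusted p-values were 0.397 to 0.455, although the fold changes stayed between -1.63 and -1.49.

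**Figure D3:**
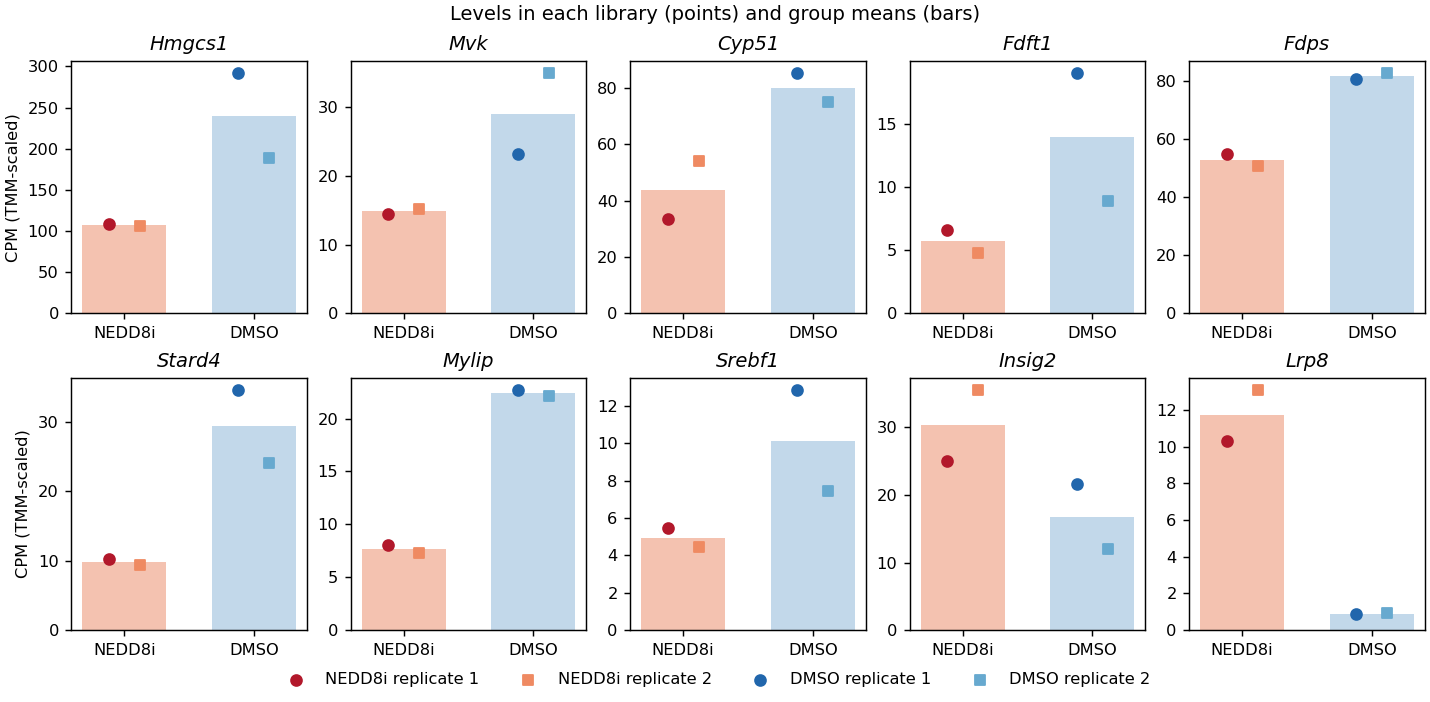
Levels of 9 of the 29 genes and of the receptor gene Lrp8, in CPM of the TMM-scaled library on linear axes that start at 0, with a point per library and a bar at each group's mean (n = 2 each). In NEDD8i skin Hmgcs1, Mvk, Cyp51, Fdft1, Fdps, Stard4, Mylip and Srebf1 lie lower than in DMSO skin and Insig2 and Lrp8 higher.

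Efflux genes were low in reads and little different between groups. Abca1, the exporter that loads cholesterol onto apolipoproteins, had 70 and 49 reads, or 8.69 and 5.89 CPM, in NEDD8i skin, and 67 and 58 reads, or 9.58 and 10.5 CPM, in DMSO skin (log2 fold change -0.46, SE 0.39, adjusted p = 0.624). Abcg1, which exports cholesterol to HDL, had 5.59 and 6.85 CPM in NEDD8i skin and 8.43 and 5.98 CPM in DMSO skin (log2 fold change -0.22, SE 0.42). Nr1h2, the gene of LXRβ, had 5.71 and 4.93 CPM in NEDD8i skin and 6.57 and 3.62 CPM in DMSO skin (log2 fold change 0.05, SE 0.48). Abcg1 and Nr1h2 overlapped between groups. Only Abca1 of the 3 lay wholly below DMSO, against 22.9% of all tested genes. Macrophages also express these exporters. Their markers, 10 genes that all had reads, summed to 43.6 and 31.4 CPM in NEDD8i skin and 26.4 and 18.3 CPM in DMSO skin. These sums were higher in both NEDD8i libraries, where C1qa alone gave 15.5 and 11.9 CPM. Of the 5 tested, 4 lay wholly above DMSO, against 25.0% of all tested genes, and Csf1r overlapped. In edgeR 0 of them passed the threshold. The part of macrophages in the exporter levels was not tested.

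**Figure D4:**
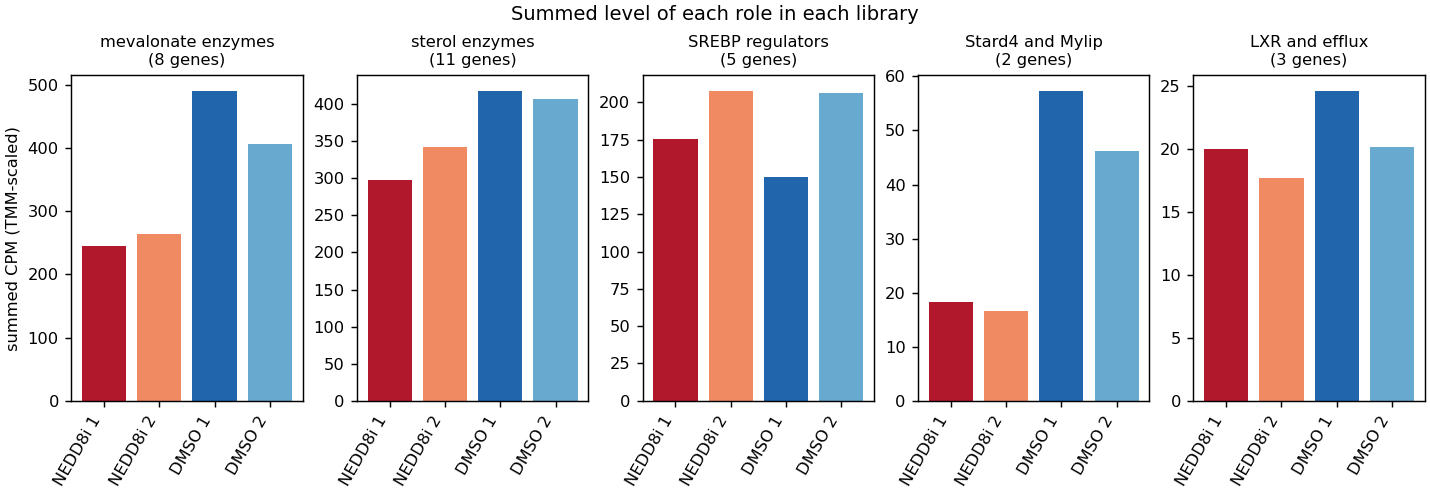
Summed CPM of the genes of each role in each library, on linear axes that start at 0 and differ between panels. Mevalonate enzymes, sterol enzymes and the pair of Stard4 and Mylip are lower in both NEDD8i libraries than in both DMSO libraries, while the SREBP regulators overlap and the LXR and efflux genes nearly meet.

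A wider list of 53 sterol and lipid genes outside the 29 gave 44 tested genes, of which 1 passed the test as higher, 0 as lower, and 25 had a negative log2 fold change (median -0.08). The gene that passed was Lrp8, which encodes an apolipoprotein E receptor. It had 83 and 109 reads in NEDD8i skin, against 6 and 5 reads in DMSO skin, a log2 fold change of 3.71 (SE 0.50, adjusted p = 0.0162). Without NEDD8i replicate 2 its adjusted p was 0.0644 at a log2 fold change of 3.51. Of the 10 tested uptake and trafficking genes 7 had a positive log2 fold change. Vldlr, a VLDL receptor gene chosen after its values were seen, had 38 and 46 reads in NEDD8i skin and 10 and 11 in DMSO skin (log2 fold change 1.58, SE 0.55, adjusted p = 0.198). Npc2, a lysosomal cholesterol carrier, stood at -0.17.

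In the other 4 groups of the wider list, 0 genes passed in edgeR; at an unadjusted p under 0.05 Por was higher and Rxra and Scd2 were lower, and Rxra and Scd2 passed with DESeq2. Of the other sterol enzymes and their electron donors, 3 of 5 had a negative log2 fold change, with Por, the reductase that feeds electrons to CYP51 and squalene epoxidase, at 0.67 (SE 0.27) and Cyb5r3, a cytochrome b5 reductase gene, at 0.73 (SE 0.39). Cyb5r3 had 89.9 and 39.6 CPM in NEDD8i skin and 37.9 and 40.0 CPM in DMSO skin, and without NEDD8i replicate 1 its log2 fold change was 0.042. For SREBP processing and turnover 7 of 11 were positive, Fbxw7 standing at -0.38 and the protease gene Mbtps1 at -0.48. In the LXR, efflux and oxysterol group 7 of 9 tested were negative, including Apoe at -0.27 and Rxra, the partner of LXR, at -1.12 (SE 0.32, adjusted p = 0.138; 0.0346 with DESeq2). Without DMSO replicate 1 the log2 fold change of Rxra was -1.42 (adjusted p = 0.000177), without DMSO replicate 2 it was -0.73 (adjusted p = 0.154), and without NEDD8i replicate 1 or 2 the adjusted p was 0.778 or 0.65. Of the SREBP-1 fatty acid targets 8 of 9 tested were negative with a median of -0.51, although the most abundant, Scd1 (0.19) and Elovl6 (-0.11), were near 0. Scd2, a desaturase named after its values were seen, was the lowest of them, with 25 and 56 reads in NEDD8i skin against 320 and 77 in DMSO skin (log2 fold change -2.60, SE 0.61, adjusted p = 0.0967; 0.00129 with DESeq2). DMSO replicate 1 held most of its reads, and without that library the log2 fold change of Scd2 was -1.51. Without NEDD8i replicate 1 or 2 it was -2.13 or -3.28. With the replicate number as a block in edgeR, Scd2 did not pass (log2 fold change -2.43, adjusted p = 0.317).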

How the data were processed

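Per the labels' protocols, libraries were made from skin RNA with a QuantSeq forward 3′ kit; the same text speaks of cells where the samples are skin. The authors deposited raw read counts per gene and the summed exon length. STAR, featureCounts and DESeq2, and the builds GRCm38 and GRCm39, are named in the submitters' processing notes; versions, strand and multi-mapping settings are not given in the sources used here. Of 52029 genes matched to GENCODE M21 on GRCm38, 2.7% shared their start, so gene coordinates are taken to be GRCm39, and promoters are on GRCm38.p6. A 3′ tag gives about 1 read per transcript, so counts were not scaled by length, and levels were not compared between genes.

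All 4 sample columns were matched by name, and 0 were left unused. Counts were tested in R 4.3.3 with edgeR 4.0.16 (TMM factors 0.912 and 0.945 for NEDD8i, 1.18 and 0.982 for DMSO; filterByExpr with a minimum count of 10 and total of 15; robust quasi-likelihood F test; group alone; Benjamini-Hochberg at 0.05 over 11388 genes). CPM used TMM-scaled library sizes, and SE is the log2 fold change over the root of F. The biological coefficient of variation was 34.6% and the median SE 0.42. No library duplicated another (chi-square per degree of freedom 27.2 to 76.7). No source mentions molecular identifiers. The fits were tested on simulated data.

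The members, gene lists and tests were chosen with earlier results of these data known, so no p was adjusted over the list and no set test was run. All 29 members are named; of the wider list, genes past the threshold and the 2 with most reads in each subgroup are named, with exceptions stated; some results for genes of the wider list are not reported here. Alternatives were DESeq2 1.42.0, RLE factors, unscaled library sizes, no filter, a fixed filter (10 counts and a CPM above 1 in 2 libraries), ribosomal RNA genes left out, a replicate block, and each library left out.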

Additional observations from a re-analysis of the deposited data

How the results depend on the processing

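With 2 libraries a group and a median SE of 0.42, most differences of the size seen here could not pass across all genes. The count of all genes called, 89, was 47 with unscaled library sizes, 387 with DESeq2, 703 without a filter, 285 with the replicate block, 483 with the crossed replicate block (chosen after seeing the data, because deviations of same-numbered libraries correlated at -0.13), and 44 to 1358 with 1 library left out. Members called, 0 in the main fit as with RLE factors, the fixed filter, unscaled library sizes and without ribosomal RNA genes, were 3 with DESeq2, 3 without a filter, 2 with the replicate block, 2 with the crossed one, and 0 to 8 with 1 library left out. The labels share only numbers, so neither block shows a pairing. The members' median of -0.49 was -0.71 with unscaled library sizes, where the median of all genes moved to -0.22 and the gap between them stayed at -0.48, and it was -0.64 to -0.31 with 1 library left out. Unscaled library sizes reversed Idi1 (-0.014), Ggps1 (-0.11), Ebp (-0.11), Srebf2 (-0.17), Nr1h2 (-0.20) and Scd1 (-0.024), and no filter reversed Hsd17b7 (0.0018). With 1 library left out the sign changed within these ranges: Pmvk -0.46 to 0.071, Msmo1 -0.42 to 0.020, Ebp -0.026 to 0.22, Nr1h2 -0.29 to 0.54, Idi1 -0.13 to 0.78, Scap -0.43 to 1.17, Srebf2 -0.11 to 0.20, Abcg1 -0.42 to 0.047, Hsd17b7 -0.18 to 0.14, Elovl6 -0.68 to 0.31, Scd1 -0.20 to 0.50, Npc2 -0.34 to 0.0036 and Fbxw7 -0.78 to 0.18. The cause was not tested. Tm7sf2 was filtered out without NEDD8i replicate 1 or 2.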
